A study of Mus musculus with 18 samples.

Results

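The glycolytic enzymes described here are 10 genes, Hk1, Pfkp, Aldoa, Aldoc, Gapdh, Eno1, Eno2, Pkm, Ldha and Ldhb, chosen by name from the 35960 genes of the count table. They include 3 pairs of isoforms that are encoded by separate genes, the aldolases Aldoa and Aldoc, the enolases Eno1 and Eno2, and the lactate dehydrogenases Ldha and Ldhb. All transcripts listed under a name were added together, 125 transcripts in all. The 18 libraries came from brains of 10 months old mice on a C57BL/6 background, 9 from homozygous Atxn2-CAG100-KIN animals (KIN), which carry an expanded CAG repeat at the mouse's own Atxn2 gene, and 9 from wild-type littermates of matched sex (WT). The mice were untreated. From each dissociated brain, microglia, astrocytes and neurons were drawn in turn with magnetic beads, by CD11b, by ACSA-2 and by removal of non-neuronal cells, so that each of the 6 groups held 3 libraries. The paper names 3 WT and 3 KIN mice, of both sexes, as the source of the fractions. Libraries of different fractions therefore share animals, but the labels do not say which replicate numbers belong to the same mouse. The main tests between fractions treat libraries as independent.

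Glycolysis turns glucose into pyruvate. Hexokinase (Hk1) traps glucose in the cell, phosphofructokinase (Pfkp, the platelet type) commits it to the pathway, aldolase splits the hexose, Gapdh carries out the oxidation step, enolase makes phosphoenolpyruvate and pyruvate kinase (Pkm) makes pyruvate, which lactate dehydrogenase interconverts with lactate. In brain, Aldoc is a classical astrocyte gene, Eno2 encodes neuron-specific enolase, Ldha is the muscle type and Ldhb the heart type of lactate dehydrogenase. Astrocytes are regarded as the more glycolytic cells, which pass lactate to neurons.

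The pairs are close in sequence but share no coding stretch of 76 bases, the read length before trimming. The first 60 coding bases of each pair that changed its balance between fractions are shown because they carry the start codon and the differences that separate the genes (GRCm39, sense strand, capitals mark bases that differ within the pair). Ldha lies on the plus strand at chr7:46497044-46497103 and Ldhb on the minus strand at chr6:142451207-142451266, and 22 of 60 bases differ. Aldoa lies on the minus strand at chr7:126396868-126396927 and Aldoc on the plus strand at chr11:78215228-78215287, and 11 of 60 differ.
Ldha: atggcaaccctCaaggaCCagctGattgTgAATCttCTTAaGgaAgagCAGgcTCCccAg
Ldhb: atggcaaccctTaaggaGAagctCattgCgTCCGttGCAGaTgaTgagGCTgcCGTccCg
Aldoa: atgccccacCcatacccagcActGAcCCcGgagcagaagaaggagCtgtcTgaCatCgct
Aldoc: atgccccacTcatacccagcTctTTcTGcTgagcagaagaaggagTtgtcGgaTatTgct

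Over the whole coding sequence, Ldha and Ldhb were 71.6% identical, Aldoa and Aldoc 75.98%, and Eno1 and Eno2 75.3%. The longest identical run was 18, 26 and 20 bases in the same order. No stretch of 76 bases, the read length before trimming, was shared within any of these pairs. Shorter reads and reads outside the coding sequence were not compared. Eno1 did share such long stretches with another gene. A copy on another chromosome, Eno1b, was 99.4% identical to it, and 73.1% of the 76-base windows of the Eno1 coding sequence also occurred in Eno1b. The table assigned 33.3 to 68.4% of the reads of both to Eno1b in single libraries, and how reads of either gene were split between them cannot be known from these counts. Eno1 values are therefore uncertain in level.

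Pkm makes its isoforms M1 and M2 from a single gene by choosing 1 of 2 exons of 167 bases, both exon 9 of their transcript and both on the plus strand. M1 uses chr9:59582312-59582478 and M2 uses chr9:59582851-59583017 (GRCm39), and 64 bases differ, shown in capitals.
Pkm M1: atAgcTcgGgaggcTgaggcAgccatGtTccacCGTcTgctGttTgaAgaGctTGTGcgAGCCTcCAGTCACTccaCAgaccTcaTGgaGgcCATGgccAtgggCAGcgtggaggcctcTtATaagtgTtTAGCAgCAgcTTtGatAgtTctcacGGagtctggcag
Pkm M2: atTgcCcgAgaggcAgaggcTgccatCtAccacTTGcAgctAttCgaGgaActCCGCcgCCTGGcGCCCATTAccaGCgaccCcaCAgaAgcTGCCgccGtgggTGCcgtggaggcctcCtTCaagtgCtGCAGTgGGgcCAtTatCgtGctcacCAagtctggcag

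In GRCm39 the members lie on the following gene spans, with all their exons and introns. Hk1 is at chr10:62104621-62215687, Pfkp at chr13:6629798-6698970, Aldoa at chr7:126393822-126399923 and Gapdh at chr6:125135289-125143518, all on the minus strand. Eno2 at chr6:124736247-124746636 and Ldhb at chr6:142435672-142454586 are on the same chromosome and strand as Gapdh. Aldoc is at chr11:78213619-78218889, Eno1 at chr4:150321073-150337027, Pkm at chr9:59563364-59586663 and Ldha at chr7:46490899-46505061, on the plus strand.

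The libraries held 2118317 to 3296398 counts in the glial fractions, 761481 to 1017972 in WT neurons and 1473194 to 2017932 in KIN neurons. The 10 most abundant transcripts held 75.8 to 85.4% of the counts of each library, so far fewer were left for all other genes. The marker lists bear on what follows. In CPM (counts scaled to a common library size with TMM factors over all 18 libraries), the 6 astrocyte markers summed to 192 to 425 in astrocyte libraries and to 16.6 or less elsewhere. The 6 microglia markers summed to 434 to 744 in microglia and to 11.4 or less elsewhere. The astrocyte fraction also carried 5 oligodendrocyte markers at 253 to 408 CPM. The neuron fraction summed to 104 to 166 CPM over 8 neuronal markers, with Tubb3, a tubulin of neurons from early in their development, alone at 64.7 to 110 CPM. Snap25, which drives the fusion of synaptic vesicles in mature neurons, was at 0 to 6.45 CPM there against 7.48 to 23.7 in WT astrocytes. Gad1, which makes GABA in inhibitory neurons, was higher in the neuron fraction, at 9.73 to 29.3 CPM against 2.28 to 4.59 in WT astrocytes, and Map2, a dendritic protein gene, overlapped at 9.23 to 24.5 against 13.3 to 21.2. Syt1, Rbfox3, Slc17a7 and Nefl, at 6.74 CPM or less in every neuron library, also overlapped, with lower means than in WT astrocytes. Of the 8 markers, 2 were thus above WT astrocytes in every neuron library, 1 below and 5 overlapping. The neuronal list was also far from even in the glial fractions. It summed to 116, 38.0 and 96.9 CPM in WT astrocyte replicates 1, 2 and 3 against 32.7 to 52.9 in KIN, and to 54.4, 14.9 and 38.7 in WT microglia against 6.66 to 8.74 in KIN. In the neuron fraction, 2 globin genes summed to 50.9 to 225 CPM, and oligodendrocyte markers reached 249 CPM in WT replicate 2 against 11.0 to 25.6 in the other 5 libraries.

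The first question was which cell fraction holds which enzyme. Summed over the 10 genes, the level was 347 ± 62.9 CPM in astrocytes, 126 ± 12.4 in microglia and 81.8 ± 17.5 in neurons (SD, n = 6 each). Aldoc alone made up 28.7 to 51.0% of these counts in astrocyte libraries and 0.268 to 5.69% in microglia, and had no count in any neuron library. Gapdh led in the other fractions, with 25.1 to 42.6% in microglia and 35.7 to 45.3% in neurons.

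**Figure D1:**
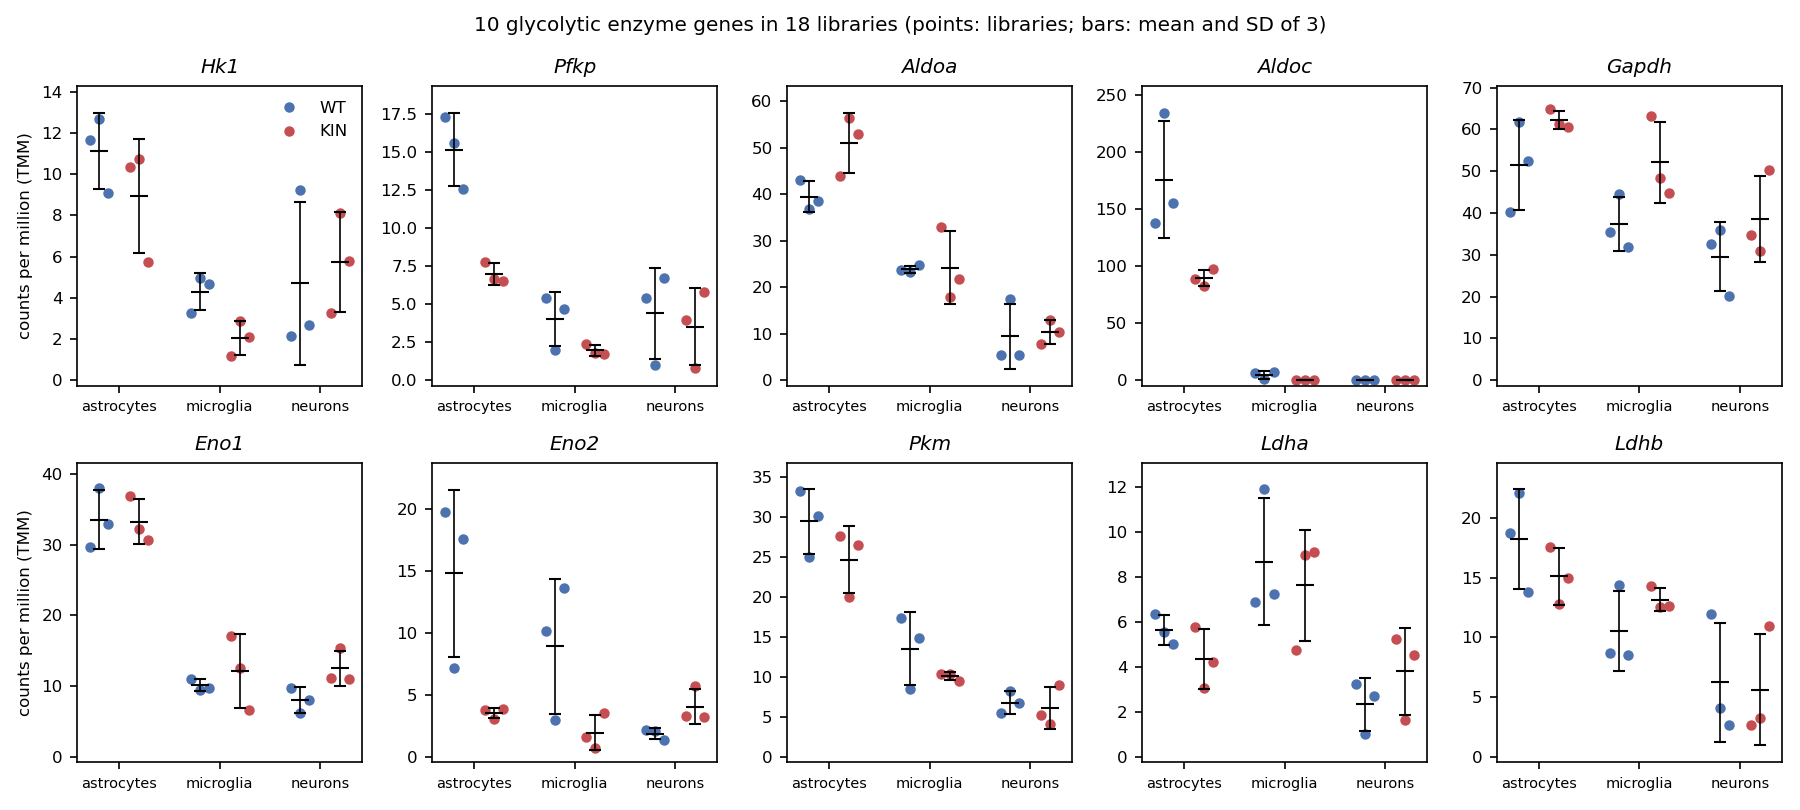
Levels of the 10 glycolytic enzyme genes in CPM (y axis, linear, a separate scale for each gene) by fraction (x axis) and genotype, with a point for each library and the mean and SD of 3 libraries as bars. Aldoc is at 82.9 to 234 in astrocytes and at 0 in every neuron library, while Ldha has its highest mean in microglia.

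Levels of different genes were compared per kilobase of the canonical transcript. This division assumes that reads spread along a transcript, which a protocol directed at 3' ends need not give. In astrocytes Aldoc stood at 47.6 ± 20.6 CPM per kilobase, Gapdh at 40.05 ± 6.43 and Aldoa at 29.9 ± 5.16 (SD, n = 6), 3 neighbours whose spreads overlapped. Eno1 followed at 14.6 ± 1.47, then Pkm at 11.1 ± 1.85 and Ldhb at 10.9 ± 2.28. Eno2, Ldha, Pfkp and Hk1 lay close together at 3.29, 3.14, 2.57 and 2.35 CPM per kilobase.

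In microglia the order began with Gapdh at 31.5 ± 7.73 and Aldoa at 15.9 ± 3.29 CPM per kilobase. Ldhb at 7.75 ± 1.73 came next, and Ldha at 5.13 ± 1.53 moved up to the level of Eno1 (4.84 ± 1.54) and Pkm (4.82 ± 1.43). Eno2, Aldoc, Hk1 and Pfkp were all under 2 CPM per kilobase, at 1.94, 0.937, 0.744 and 0.695. In neurons Gapdh was at 24.0 ± 6.84, Aldoa at 6.55 ± 3.12 and Eno1 at 4.47 ± 1.37. Ldhb at 3.88 ± 2.82 and Pkm at 2.63 ± 0.776 followed, with overlapping spreads, and Ldha, Hk1, Eno2 and Pfkp were at 1.93, 1.22, 1.06 and 0.918.

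Tested with edgeR's quasi-likelihood test over 13552 genes (mean of both genotypes; a gene was called where its Benjamini-Hochberg adjusted p did not pass 0.05 and its log2 fold change was 1 or more in size), 5 of 10 members were lower in microglia than in astrocytes and none was higher. Over all genes tested, 18.2% were called lower and 14.9% higher. The 5 were Aldoc, Pfkp, Hk1, Eno1 and Pkm. The median log2 fold change of the 10 was -1.04, against -0.02 over all genes. Between neurons and astrocytes 7 members were lower and none higher, beside 19.3% lower and 11.5% higher of all genes. Their median was -1.42 against -0.27 for all genes, and was the same with Aldoc set at its bound. Between neurons and microglia edgeR called 3 lower, Aldoa, Aldoc and Ldha, and none higher, beside 17.3% and 10.2% of all genes. The Aldoc call set a fitted value for 0 counts against a microglial level under the floor of the neuron libraries and is not read as a change, which leaves 2. Hk1 was called higher in neurons under some alternatives, without WT replicate 1 of the neurons (log2 fold change 1.0001), with a filter at a mean of 10 counts (1.06) and with KIN libraries only (1.36). Here the median was -0.74 against -0.15, or -0.50 with Aldoc at its bound. In bulk fractions, fewer cells that hold a transcript and less of it in each cell cannot be told apart.

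At the entry of the pathway, Hk1 was at 5.75 to 12.7 CPM in astrocytes and at 1.19 to 4.96 in microglia, with no overlap (log2 fold change -1.73, SE 0.28, edgeR adjusted p = 4.59e-08). The neuron libraries, at 2.17 to 9.23, spanned both. Pfkp was at 6.52 to 17.3 CPM in astrocytes and 1.75 to 5.38 in microglia, again without overlap (log2 fold change -1.82, SE 0.28, adjusted p = 1.50e-08). In neurons it was lower than in astrocytes by edgeR (log2 fold change -1.38, SE 0.33, adjusted p = 0.000287), although the highest neuron library, at 6.74 CPM, passed the lowest astrocyte library.

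Of the aldolases, Aldoc had 162 to 719 counts in each astrocyte library, 1 to 20 in microglia and 0 in neurons. With the floor of 3 counts in each neuron library, a mean of 2.79 CPM, astrocytes were at least 47.6-fold higher. Microglia, with a mean of 2.61 CPM, were under that floor, so no fold against neurons is given. Aldoa was more widely shared. It was at 36.7 to 56.3 CPM in astrocytes, 17.9 to 33.0 in microglia and 5.39 to 17.4 in neurons, 3 ranges that did not overlap. The log2 fold change of neurons against microglia was -1.26 (SE 0.24, edgeR adjusted p = 7.70e-06). The highest neuron value was WT replicate 2, the library with high oligodendrocyte markers, and the part of such cells in this value was not tested.

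Gapdh, the dehydrogenase often used as a reference gene, was called in no fraction comparison. It was at 40.3 to 64.8 CPM in astrocytes, 31.9 to 63.2 in microglia and 20.2 to 50.3 in neurons. The log2 fold change of neurons against astrocytes was -0.73 (SE 0.20, edgeR adjusted p = 0.00148), under the fold threshold, and that of microglia against astrocytes was -0.36 (SE 0.18, adjusted p = 0.0937). Of its reads, 49.8% lay on transcripts annotated as protein-coding, the rest mainly on transcripts with a retained intron.

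Of the enolases, Eno1 was at 29.7 to 38.0 CPM in astrocytes and at 6.66 to 17.1 in microglia, with a log2 fold change of -1.59 (SE 0.19, edgeR adjusted p = 3.45e-12). It was at 6.15 to 15.4 CPM in neurons and did not differ between neurons and microglia beyond the spread (log2 fold change -0.15, SE 0.26, adjusted p = 0.703). Eno2, the neuronal enolase, did not have its highest mean over both genotypes in the neuron fraction. There it had 1 to 7 counts in each library, 22 in all, at 1.35 to 5.68 CPM. In astrocytes it ranged from 3.07 to 19.8 CPM and in microglia from 0.718 to 13.6, with its high values in WT replicates 1 and 3 of both fractions. The call of a lower Eno2 in neurons than in astrocytes rested on WT. With WT libraries only, the log2 fold change was -2.87, and with KIN libraries only it was 0.09. In WT the means were 1.86 CPM in neurons, 14.8 in astrocytes and 8.92 in microglia, and in KIN 4.06, 3.55 and 1.94.

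Pkm was at 19.95 to 33.2 CPM in astrocytes, 8.43 to 17.3 in microglia and 4.06 to 9.03 in neurons. Astrocytes stood clear of both other fractions, with log2 fold changes of -1.19 in microglia (SE 0.19, edgeR adjusted p = 6.90e-08) and -2.05 in neurons (SE 0.25, adjusted p = 9.48e-12). Reads assigned to the M1 transcript were 97 and to the M2 transcript 225 in astrocytes, 43 and 89 in microglia, and 9 and 21 in neurons. The M1 share was thus 30.1% (exact 95% binomial interval 25.2 to 35.5) in astrocytes, 32.6% (24.7 to 41.3) in microglia and 30.0% (14.7 to 49.4) in neurons. The intervals overlapped widely. Reads outside the exon that differs fit both transcripts and could be placed on either, so these shares are not exon usage.

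For the lactate dehydrogenases, Ldha was the only member with a higher mean in microglia than in astrocytes. It was at 4.77 to 11.9 CPM in microglia and 3.07 to 6.36 in astrocytes, ranges that overlapped, with a log2 fold change of 0.67 (SE 0.25, edgeR adjusted p = 0.0256), under the fold threshold. Neurons were at 1.03 to 5.24 CPM and lower than microglia (log2 fold change -1.41, SE 0.36, adjusted p = 0.00105). Ldhb ran the other way, at 12.8 to 22.1 CPM in astrocytes, 8.51 to 14.4 in microglia and 2.62 to 11.9 in neurons. The neuron values of both genes rested on 1 to 17 counts in each library.

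The balance within each pair was read as a share of the counts of both genes, and the fractions were compared by exact permutation, two-sided, over 6 and 6 libraries (9 comparisons, Benjamini-Hochberg adjustment). The smallest p this allows is 0.00216. The test treats libraries as independent, although the fractions share animals. The Aldoc share of the aldolase counts was 72.3 ± 10.2% in astrocytes, 8.87 ± 9.81% in microglia and 0 in neurons (SD, n = 6). Astrocytes did not overlap with either other fraction, and both comparisons gave the smallest p (exact permutation, adjusted p = 0.00649). Neurons against microglia gave the same p, but the 4 to 17 aldolase counts of the neuron libraries leave exact upper bounds of 19.5 to 60.2% in single libraries, against microglial shares of 1.19 to 22.7%. No lower share in neurons than in microglia is read from it.

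The Ldhb share was 77.0 ± 3.00% in astrocytes, between 73.3 and 80.6%. In microglia it was 59.3 ± 7.87%, with 5 libraries between 54.1 and 58.3% and KIN replicate 1 at 75.0%. The difference of -17.7 percentage points gave an exact permutation p of 0.00649 (adjusted p = 0.0146), the libraries overlapping only through that replicate. In neurons the share was 63.2 ± 18.2% and ranged from 33.3 to 80.0% on 4 to 24 counts. It did not differ from astrocytes (adjusted p = 0.144) or microglia (adjusted p = 0.735) beyond its spread by the exact test.

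The Eno2 share of the counts of both enolases was 19.9 ± 13.8% in astrocytes, 29.7 ± 21.2% in microglia and 21.6 ± 4.64% in neurons, and none of the 3 comparisons was past the threshold (exact permutation, adjusted p = 0.501 to 0.777). It varied more within glia than between fractions. With Eno1b counted with Eno1, the shares were 13.7, 19.9 and 10.9%.

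**Figure D2:**
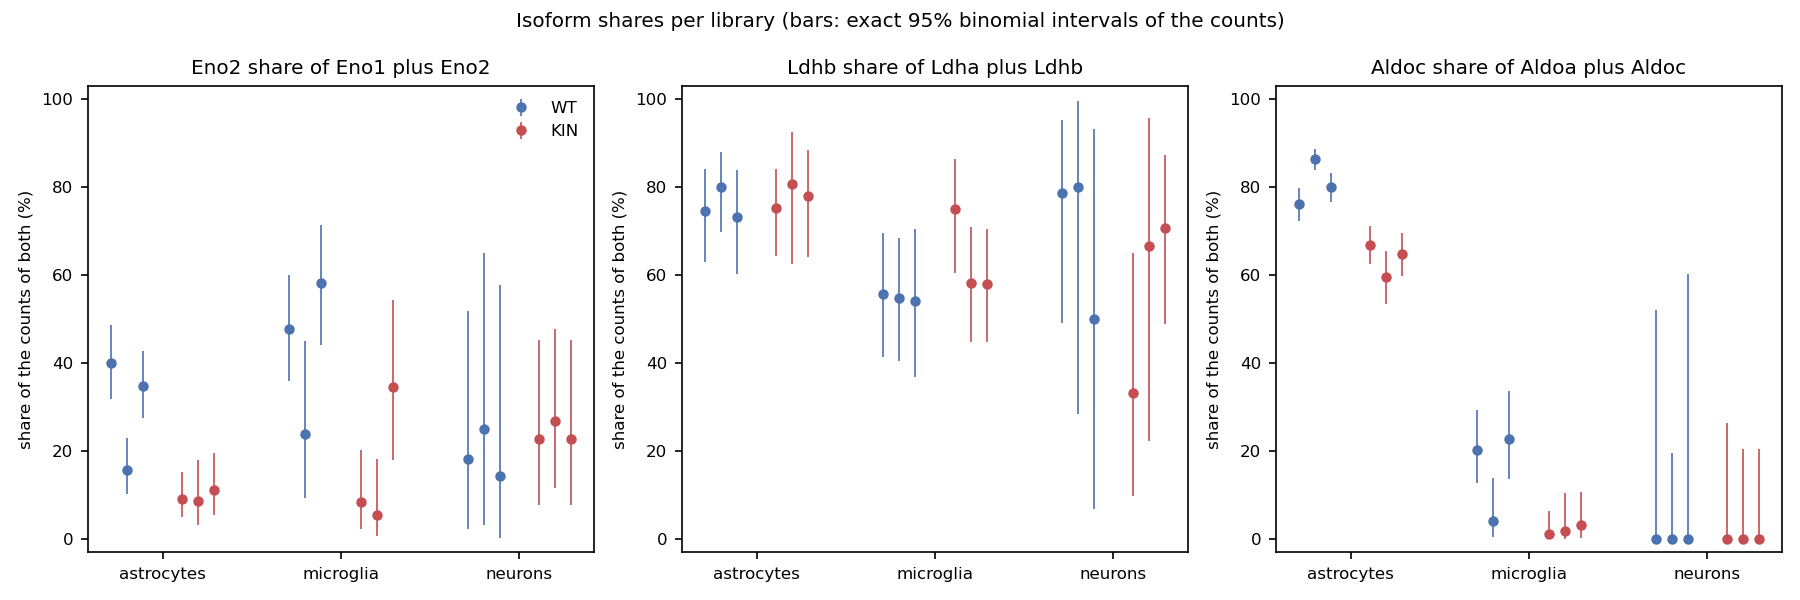
Share of the second isoform in the counts of each pair (y axis, percent) by fraction and genotype, with a point for each library and its exact 95% binomial interval, which covers counting error only. Aldoc separates the fractions at 59.6 to 86.4% in astrocytes and 22.7% or less elsewhere, whereas the Eno2 share runs from 5.41 to 58.2% within microglia.

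The second question was what the Atxn2 expansion changes. In astrocytes, 2 of 10 members were called lower in KIN and none higher, where 6.42% of the 11751 genes tested were called lower and 2.43% higher. The KIN libraries lay wholly below the WT libraries for Pfkp, Aldoc and Eno2 and wholly above them for Aldoa, as 14.1% and 13.8% of all genes did. The median log2 fold change of the members was -0.29, and that of all genes was -0.0042.

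Eno2 was at 19.8, 7.15 and 17.6 CPM in WT astrocyte replicates 1, 2 and 3 and at 3.74, 3.07 and 3.83 in KIN. WT replicate 2 was well under the other WT libraries. The log2 fold change was -2.04 (SE 0.33, edgeR adjusted p = 2.24e-05), and WT held 4.08 times as much in the pooled counts (exact 95% interval 2.72 to 6.33, counting error only). The same WT libraries were high in neuronal markers, at 116 and 96.9 CPM in sum, and replicate 2 was at 38.0 against 32.7 to 52.9 in KIN. The markers of the list did not move together. Tubb3 was at 5.53 CPM in WT replicate 2 and at 10.1 to 21.1 in KIN, whereas Snap25 was at 7.48 in WT replicate 2, between the 19.4 and 23.7 of the other WT libraries and the 2.59 to 3.58 of KIN. With WT replicate 2 alone against the 3 KIN libraries, the log2 fold change was -1.004, which restates its lower level and is given without a test, since that library was picked after its values were seen and leaves no spread within WT. The part of neuronal RNA in the Eno2 difference was not tested. The Eno2 share of enolase counts was 40.0, 15.8 and 34.8% in WT and 9.22, 8.70 and 11.1% in KIN.

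Pfkp was at 17.3, 15.6 and 12.5 CPM in WT and at 7.78, 6.65 and 6.52 in KIN, at a like level in the 3 mutant libraries. The log2 fold change was -1.11 (SE 0.27, edgeR adjusted p = 0.00318). Against WT replicate 2 alone the log2 fold change was -1.16, again without a test. The summed neuronal markers of the WT libraries were at 116, 38.0 and 96.9 CPM. The summed astrocyte markers were at 292 to 425 CPM in WT and 192 to 205 in KIN, with Gja1 (log2 fold change -1.39) and Fgfr3 (-1.16) called lower by edgeR and Gfap higher in every KIN library than in any WT library. The summed oligodendrocyte markers overlapped, at 253 to 408 CPM in WT and 359 to 378 in KIN. Of that list only Mog did not overlap, at 10.6 to 14.3 in WT and 27.6 to 31.7 in KIN. The part of any of these cell types in the Pfkp difference was not tested. Only 27.8% of all Pfkp reads fell on protein-coding transcripts, and the largest share, 34.8%, on a transcript with a retained intron. The reads on coding transcripts moved the same way, with a mean of 4.29 CPM in WT and 1.85 in KIN.

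Aldoc was at 138, 234 and 155 CPM in WT and at 88.7, 82.9 and 97.4 in KIN. The log2 fold change of -0.98 (SE 0.22, edgeR adjusted p = 0.00170) missed the fold threshold narrowly. The 6 astrocyte markers summed to 307, 425 and 292 CPM in the same WT libraries and 192, 205 and 194 in KIN, without overlap. Of the 6, Gfap went the other way, at 7.07, 15.3 and 6.90 CPM in WT and 18.7, 16.4 and 16.1 in KIN (log2 fold change 0.80, edgeR adjusted p = 0.0369). Whether the share of astrocytes in the fraction has a part in the Aldoc difference was not tested. Aldoa showed the opposite order, with 43.1, 36.7 and 38.6 CPM in WT and 43.8, 56.3 and 52.9 in KIN, but its log2 fold change of 0.35 (SE 0.21, adjusted p = 0.304) was not past the threshold. The Aldoc share fell from 80.9 ± 5.15% to 63.8 ± 3.80% (SD, n = 3) without overlap. An exact permutation test of 3 against 3 cannot go below p = 0.1, and gave this value.

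The transcript split of Pkm also differed by genotype in astrocytes, where the M1 share was 30.4, 34.8 and 44.8% in WT and 26.7, 20 and 17.0% in KIN, without overlap. Pooled, it was 37.3% in WT (exact 95% interval 30.0 to 45.0) and 22.2% in KIN (15.9 to 29.6). M1 is the isoform of mature neurons and muscle, and in microglia the WT libraries with more neuronal markers, replicates 1 and 3, had M1 shares of 42.1 and 52.4%, while replicate 2 had 18.8% and KIN had 15.8 to 33.3%. In astrocytes, WT replicate 2 had summed neuronal markers of 38.0 CPM, inside the KIN range, and an M1 share of 34.8%, on 16 M1 and 30 M2 counts. WT replicate 1, at 116 CPM, had 30.4%, on 17 and 39 counts. Single markers differed from the sum. Snap25 was at 7.48 CPM in WT replicate 2 and at 2.59 to 3.58 in KIN, whereas Tubb3 was at 5.53 and at 10.1 to 21.1. The part of neuronal RNA in these shares was not tested.

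The other 6 members in astrocytes had log2 fold changes between -0.33 and 0.26 with edgeR adjusted p-values of 0.482 to 0.966. Among them Gapdh was at 40.3 to 61.8 CPM in WT and 60.6 to 64.8 in KIN, and Eno1 at 29.7 to 38.0 and 30.7 to 36.9.

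**Figure D3:**
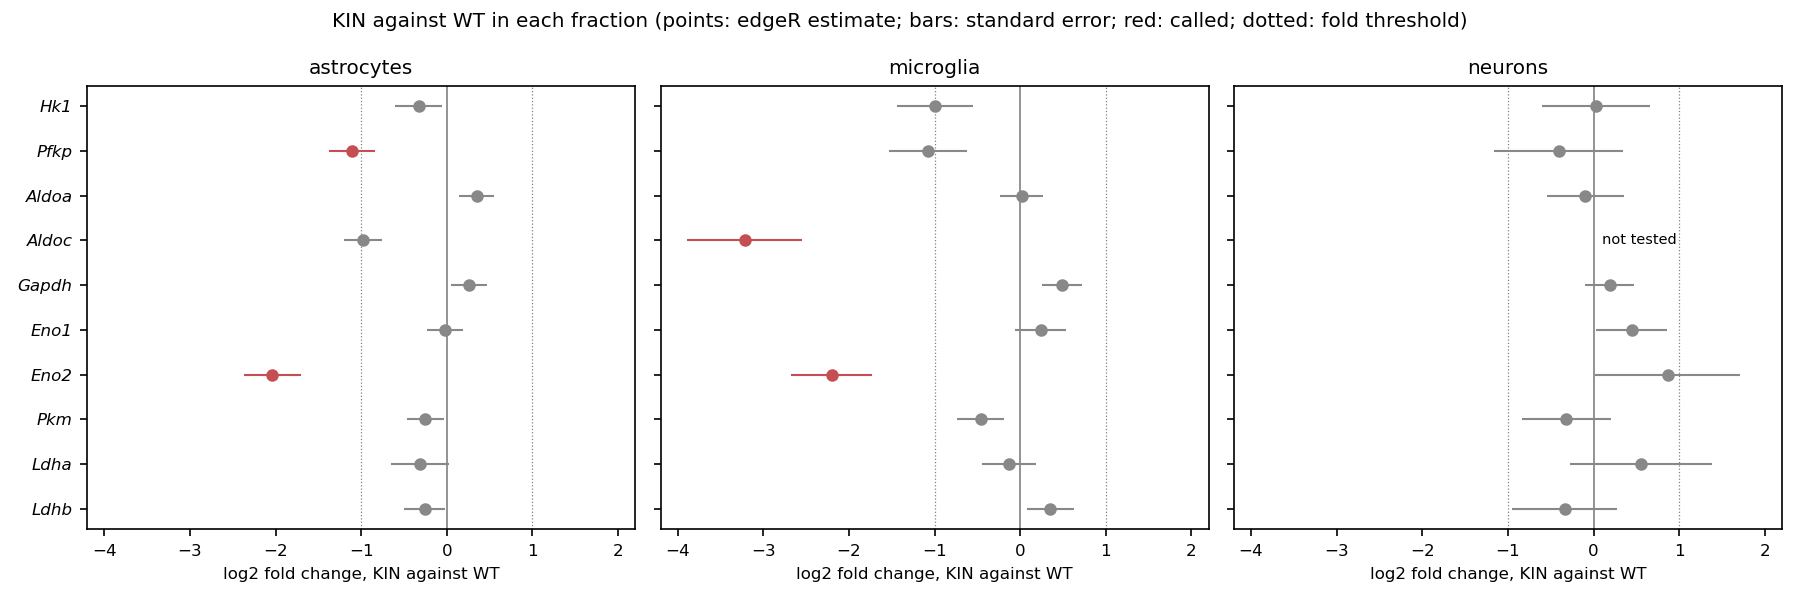
Log2 fold change of KIN against WT (x axis) for the 10 members (y axis) in each fraction, with the edgeR estimate as a point and its standard error as a bar, red where called and dotted lines at the fold threshold. Eno2 is called lower in both glial fractions and lies at 0.86 in neurons, where Aldoc was not tested.

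In microglia, 2 of 10 members were called lower in KIN and none higher, where 0.785% of the 10831 genes tested were lower and 0.739% higher. The groups did not overlap for Hk1 and Aldoc, with KIN below, and for Gapdh, with KIN above, beside 7.55% and 8.46% of all genes. The members' median log2 fold change was -0.30, against -0.0060 for all genes. By DESeq2 neither call held, where 41 genes were called higher and 7 lower of 10831. At an unadjusted p under 0.05 were 2 members by DESeq2 and 4 by edgeR, beside 1304 of the 10831 genes by edgeR.

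Aldoc had 20, 2 and 17 counts in WT microglia replicates 1, 2 and 3 and 1, 1 and 2 in KIN. WT replicate 2 was thus close to the KIN libraries. The pooled counts, 39 against 4, gave a ratio of 10.3 of WT to KIN (exact 95% interval 3.72 to 39.7), and edgeR an adjusted p of 0.0119. The 6 astrocyte markers summed to 14.0, 15.9 and 16.6 CPM in WT and 13.5, 16.5 and 14.7 in KIN. Most of the sum was Slc1a3, with means of 9.88 in WT and 11.2 in KIN, while Gja1 had 3.25 and 1.95 and Aqp4 0.729 and 0.120. In the same libraries the neuronal markers were at 14.9 to 54.4 CPM in WT and 6.66 to 8.74 in KIN, and the oligodendrocyte markers at 19.6 to 23.6 in WT and 7.95 to 12.6 in KIN, both without overlap. The part of any of these cells in the Aldoc difference was not tested.

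Eno2 was at 10.2, 2.98 and 13.6 CPM in WT microglia and 1.59, 0.718 and 3.51 in KIN (log2 fold change -2.20, SE 0.47, edgeR adjusted p = 0.0142), with WT replicate 2 inside the KIN range. Neuronal markers in these libraries were at 54.4, 14.9 and 38.7 CPM in WT and at most 8.74 in KIN, and the part of neuronal RNA in the Eno2 difference was not tested. When a single library was left out, the Eno2 call was kept only without WT replicate 2 or KIN replicate 3 and the Aldoc call only without WT replicate 2. The log2 fold change ran from -2.96 to -1.80 for Eno2 and from -3.62 to -3.04 for Aldoc, with edgeR adjusted p-values of at most 0.136 and 0.0970. Aldoc was not tested without WT replicate 1 or 3.

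**Figure D4:**
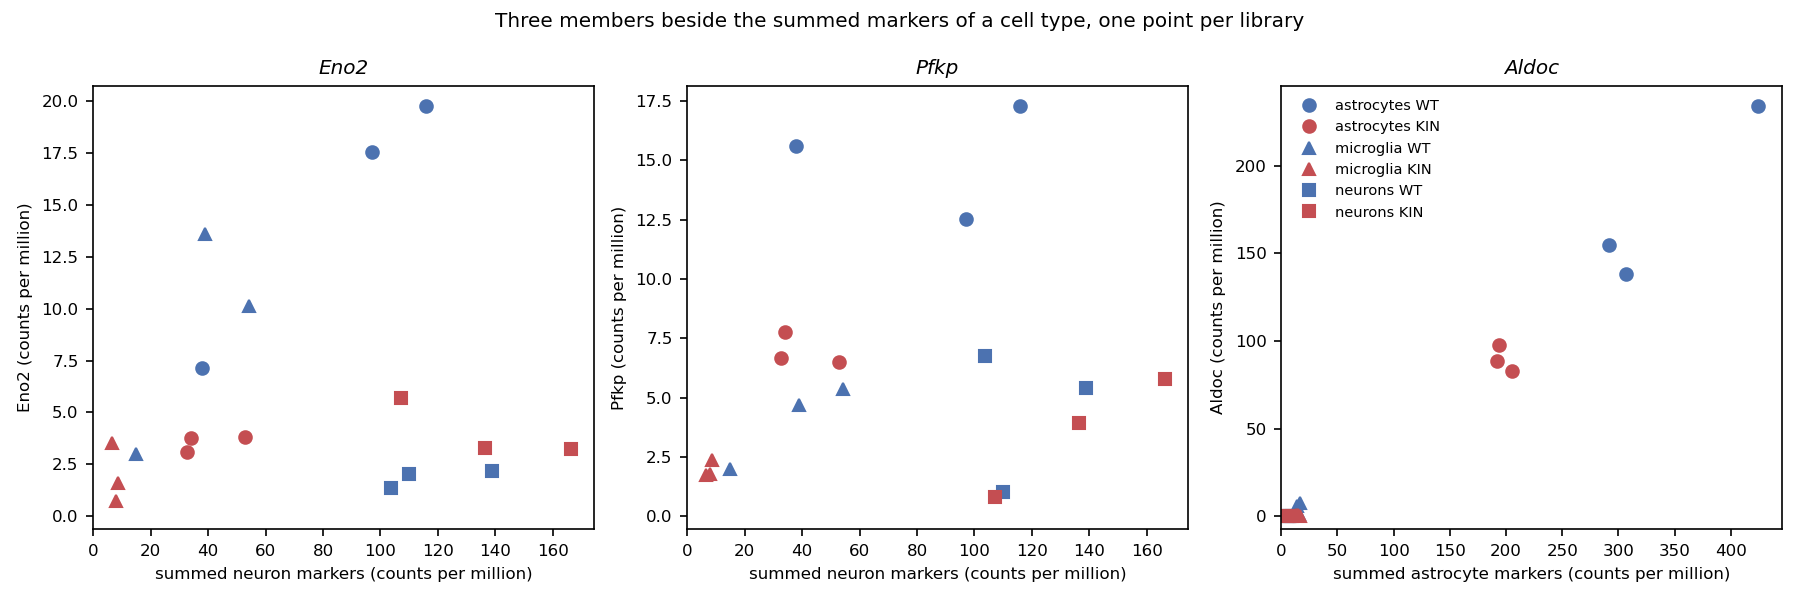
Eno2, Pfkp and Aldoc (y axes, CPM) against the summed neuron or astrocyte markers of the same library (x axes, CPM), with a point for each of the 18 libraries. Eno2 lies at 17.6 and 19.8 in the WT astrocyte libraries at 96.9 and 116 of neuronal markers and at 1.35 to 5.68 in the neuron fraction, Pfkp at 12.5 to 17.3 in WT astrocytes, and Aldoc at 82.9 or more in the astrocyte libraries; the part of the marked cells in these levels was not tested.

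Hk1 was at 3.29, 4.96 and 4.68 CPM in WT microglia and 1.19, 2.87 and 2.11 in KIN, without overlap but not past the test (log2 fold change -0.99, SE 0.44, edgeR adjusted p = 0.350). Gapdh was at 35.5, 44.7 and 31.9 CPM in WT and 63.2, 48.5 and 44.9 in KIN (log2 fold change 0.48, SE 0.24, adjusted p = 0.416). The Ldhb share in microglia was 55.8, 54.7 and 54.1% in WT and 75.0, 58.3 and 58.1% in KIN, ranges that did not overlap but whose counting intervals all did, and the exact permutation p was again 0.1. Pfkp, with 18, 4 and 11 counts in WT and 6, 5 and 5 in KIN, had a log2 fold change of -1.08 (SE 0.46, adjusted p = 0.311). WT replicate 2 lay inside the KIN range, at 1.98 CPM against 1.75 to 2.38.

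In neurons, 9 members passed the count filter and none was called by edgeR, none was at an unadjusted p under 0.05, and DESeq2 gave 0 on both counts. Few genes passed at all, 0.0739% lower and 0% higher of 6765. Eno1 and Eno2 were above WT in every KIN library, beside 11.5% of all genes, and no member was below, beside 2.22%. Eno2 had 2, 2 and 1 counts in WT and 5, 7 and 5 in KIN. The pooled ratio of WT to KIN was 0.480 (exact 95% interval 0.139 to 1.36), an interval that includes no difference. Eno1 had 9, 6 and 6 counts against 17, 19 and 17, with a log2 fold change of 0.44 (SE 0.42, edgeR adjusted p = 0.968). The WT neuron libraries were the shallowest of the series.

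Whether the effect of KIN differed between fractions was tested as an interaction. No member was called in any of the 3 comparisons by edgeR or DESeq2, where edgeR called 0.819%, 0.708% and 0.14% of all genes. In each, 1 member was at an unadjusted p under 0.05 with either tool, beside 1521, 1670 and 1306 of 13552 genes by edgeR. Eno2 came closest. Its effect in neurons was 3.06 above that in astrocytes on the log2 scale (SE 0.84, edgeR adjusted p = 0.0518) and 3.24 above that in microglia (SE 0.88, adjusted p = 0.0830), from the counts of 1 to 7 in neurons just given. The first passed the threshold with the replicate block (3.02, adjusted p = 0.0354), and over the alternatives run its edgeR adjusted p ranged from 0.0112 to 0.167. The effect on Aldoc in microglia was 2.23 below that in astrocytes (log2 fold change -2.23, SE 0.70, adjusted p = 0.104).

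The rest of the pathway was followed in 43 further genes, most of them named in the processing section, which cover other isozymes, glucose and lactate carriers, and enzymes that control pyruvate use. No gene of this list was called between KIN and WT by edgeR, of 29 tested in astrocytes, 30 in microglia and 13 in neurons, with 4, 5 and 0 at an unadjusted p under 0.05. Of all genes, 2927 of 11751, 1304 of 10831 and 341 of 6765 were at that level. DESeq2 called none either, with 3, 2 and 0 at that level. Their median log2 fold changes were 0.07, 0.13 and 0.42, beside -0.0042, -0.0060 and 0.045 over all genes. In astrocytes Slc2a1, the main glucose carrier (log2 fold change -0.86, SE 0.25, edgeR adjusted p = 0.0156), and Slc16a1, a lactate carrier (0.95, SE 0.30, adjusted p = 0.0287), passed the p threshold but not the fold threshold. Slc16a1 was called without astrocytes WT replicate 2 (1.0498, edgeR adjusted p = 0.0126). In microglia Slc2a5, the fructose carrier, was at -1.01 (edgeR adjusted p = 0.167) and was called with no filter on low counts (-1.03, adjusted p = 0.0272) and without KIN replicate 1 (-1.75, adjusted p = 0.0241).

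Between fractions genes of the list were called in both directions. Of 33 tested, 9 were called higher and 8 lower in microglia than in astrocytes, beside 14.9% and 18.2% of all genes. Among the hexokinases, Hk2, the inducible isozyme, stood at 30.15 ± 3.64 CPM in microglia and 0.656 ± 0.602 in astrocytes (SD, n = 6; log2 fold change 5.65, SE 0.32, edgeR adjusted p = 1.52e-33), while Hk1 was lower in microglia. Hk3 had 78 counts over the microglia libraries, 1 in astrocytes and 0 in neurons, and Slc2a5 had 180, 3 and 3. Lower in microglia were the muscle phosphofructokinase Pfkm (log2 fold change -3.51, SE 0.30), which went the same way as Pfkp, Pdk2, an inhibitory kinase of pyruvate dehydrogenase (-2.87, SE 0.29), and Bpgm (-2.75, SE 0.41), which makes bisphosphoglycerate.

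Against astrocytes, 2 of the 33 were higher in neurons and 14 lower, beside 11.5% and 19.3% of all genes. Hk2 (log2 fold change 1.82, SE 0.62, edgeR adjusted p = 0.0140) and the regulatory enzyme Pfkfb2 (1.28, SE 0.37, adjusted p = 0.00389) were the higher ones. Hk2 had only 14 counts over the neuron libraries and 10 in astrocytes. Its neuron mean of 2.00 CPM was under the mean floor of 2.79 of those libraries, so its call is not read as a change. Pfkm (-2.88, SE 0.36) was among the lower, with Eno4 and Ldhd, which had only 2 counts each in all neuron libraries. Against microglia, 1 was higher in neurons, Pfkfb2 again (1.10, SE 0.37, adjusted p = 0.0144), and 13 were lower, beside 10.2% and 17.3% of all genes, led by Hk3, Slc2a5 and Hk2 (-3.83, SE 0.32).

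Genes whose log2 CPM followed the isoform genes most closely over the 18 libraries were listed as a description, since fraction and genotype are shared by all points. Nearest to Aldoc were Slc6a11 (Pearson r = 0.990), a GABA transporter, Tril (0.984) and Atp1b2 (0.982), a sodium pump subunit of astrocytes. Slc6a11 was at 96.0 CPM in astrocytes, 1.07 in microglia and 0 in neurons. Among the nearest to Aldoa were Lonp2 (0.957) and Entpd6 (0.940), and nearest to Eno1 were Wscd1 (0.943), Hes5 (0.940) and Tmem229a (0.937). Among the nearest to Eno2 were Kcnj9 (0.903), a potassium channel gene, and Ncdn (0.887). Ldhb had Pttg1ip (0.933), Soat1 (0.910) and Pccb (0.908), and Ldha had Ncor1 (0.905), Taf15 (0.890) and Ppm1h (0.882), so no gene was nearest to both members of a pair.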

How the data were processed

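The authors trimmed reads with cutadapt 4.6, collapsed molecular identifiers, mapped with Bowtie2 2.4.4 to mm39 transcripts and counted without strand with HTSeq 2.0.2 (versions from the submitters' processing notes). Libraries followed a 3'-end protocol after ribosomal RNA depletion and tailing. The deposited table gives raw counts for 116873 transcripts; 36 further columns of values per sample and the authors' comparison columns (fold changes, p-values) were not used. Here counts were added by gene name, and reads that fit several transcripts or copies had been placed on 1 of them. A gene needed 5 counts in 2 libraries. edgeR 4.0.16 (R 4.3.3, TMM) was fitted to the 6 libraries of a fraction for KIN against WT and to all 18 for fractions and interactions, with p-values adjusted over all genes tested. Intervals are exact at 95% and, like the floor of 3 counts, cover counting error only. P-values measure the spread between libraries. The code was tested on simulated data. Alternatives were DESeq2 1.42.0, other scalings and filters, a replicate block and leaving out libraries. The sequences and positions are from GRCm39 with GENCODE vM39.

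The members and lists were chosen with earlier results of these data known. The members are always named. Of the other 43 pathway genes (among them Hk2, Hk3, Hkdc1, Gpi1, Pfkl, Pfkm, Tpi1, Gapdhs, Pgk1, Pgk2, Pgam1, Pgam2, Bpgm, Eno1b, Eno3, Eno4, Pklr, Ldhc, Ldhd, Adpgk, Pfkfb1 to Pfkfb4, Slc2a1, Slc2a3, Slc2a5, Slc16a1, Slc16a3, Slc16a7, Mpc1, Mpc2, Pdha1, Pdhb, Dlat, Pdk1 to Pdk4, Tigar, Hif1a), up to 3 called each way with the largest change were named per comparison, and for each isoform gene the 3 genes of highest Pearson r of log2 CPM; a few items are not reported here.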

Additional observations from a re-analysis of the deposited data

Results flagged for a closer look

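Eno2 stood out because every KIN library was above every WT library in neurons (log2 fold change 0.86) and below in astrocytes (-2.04). The interaction of neurons and astrocytes was 3.06 with an edgeR adjusted p of 0.0518, not past the threshold. It was called in 9 of the 24 alternatives that kept Eno1 and Eno1b apart, among them the replicate block (3.02, adjusted p = 0.0354). Over these 24 the adjusted p ranged from 0.0112 to 0.167.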

How the results depend on the processing

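The 2 calls in astrocytes held in count, at 2 to 3, under the alternatives run. Against WT replicate 2 alone, picked after its lower Eno2 level was seen, the log2 fold change was -1.40 for Aldoc, -1.07 for Pfkm and -1.09 for Slc2a1. That fit has no spread within WT, so its calls are not given and it says nothing of whether the Eno2 call holds. Aldoc in astrocytes also passed the fold threshold without WT replicate 1, WT replicate 3 or KIN replicate 3 (-1.13 to -0.73 over the libraries left out). With all libraries kept it passed under the filter at a mean of 10 counts, where 3 members and 541 of 6252 genes were called lower. In microglia the 2 calls became 0 with DESeq2, 1 with a filter at a mean of 10 counts, and 0 to 2 when single libraries were left out. A fit with WT replicate 2 as the lone WT library was added there too after seeing the data, and its calls are not given for the same reason. Without the fold threshold, 9 in place of 5 members passed between microglia and astrocytes and 5 in place of 3 between neurons and microglia. At an unadjusted p under 0.05 by edgeR were 10 and 6 members, beside 6674 and 5568 of 13552 genes. Between neurons and microglia, leaving out libraries gave 3 to 5 calls, with 5 without neurons WT replicate 1 (4 lower and Hk1 higher) or KIN replicate 3 (5 lower). Eno2 in neurons against astrocytes turned from -1.40 to 0.087 with KIN libraries only. The count of interactions, 0 in each comparison, ranged from 0 to 1 over the libraries left out for microglia minus astrocytes, 0 to 1 for neurons minus astrocytes and 0 to 1 for neurons minus microglia, with 1 without astrocytes WT replicate 2 or microglia WT replicate 2 in the first, without astrocytes WT replicate 2 or any of 6 microglia libraries in the second, and without microglia WT replicate 2 or KIN replicate 3 in the third. For neurons minus astrocytes it was 1 with no filter, 1 with the replicate block and 1 with Eno1 and Eno1b added together (also added after seeing the data). The Ldhb share in neurons minus astrocytes, -13.8 points, ranged from -17.1 to -7.78 over the libraries left out and passed an unadjusted threshold of 0.05 by exact permutation without neurons WT replicate 1 (-16.8) or WT replicate 2 (-17.1). The cause of these shifts was not tested. Same-numbered libraries correlated at -0.063 to 0.209, so the numbers were not taken to pair the samples. With the replicate block, the Eno2 interaction of neurons and astrocytes was 3.02 (edgeR adjusted p = 0.0354), while the counts of calls stayed at 2 in astrocytes, 2 in microglia, 0 in neurons and 5, 7 and 3 between fractions. Depth limits the neuron values, which rest on 1 to 78 counts a library in members other than Aldoc.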
